A study of Mus musculus with 12 samples.

Results

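The interferon-inducible p200 genes and Aim2 form a family of nucleic acid-binding proteins that is encoded in a single cluster on mouse chromosome 1. This section describes 10 of its genes, Ifi203, Ifi204, Ifi205, Ifi207, Ifi208, Ifi209, Ifi211, Ifi213, Mndal and Aim2, in M1-activated bone marrow-derived macrophages (BM-Mɸs). The members were taken by gene symbol from a table of principal transcripts, and the TPM of a gene's transcripts were summed. TPM expresses a level as a transcript's share of all transcripts and is already scaled for transcript length. The 10 genes hold 15 of the 28808 transcripts and are 10 of the 22243 genes of the table.

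Polyadenylated RNA was sequenced from 6 ErbB4myeKO mice and 6 ErbB4FF littermates on a C57Bl/6 background, with 1 mouse of each genotype from each of 6 litters. Both genotypes carried floxed ErbB4, and ErbB4myeKO mice also carried LysMCre, which expresses the recombinase under control of the lysozyme 2 gene in myeloid cells. Bone marrow was cultured in conditioned medium containing M-CSF, and the BM-Mɸs of both genotypes received IFNγ (100 U/ml, 16 h) followed by LPS (100 ng/ml, 6 h). No unstimulated library was analysed here, so the values are levels after stimulation and not induction. The age and sex of the mice are not on the labels, and the batch on the labels coincides with the litter.

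Members of this family pair a HIN domain, which binds DNA, with a pyrin domain, which joins other pyrin domains, although some members lack either domain. AIM2 binds double-stranded DNA in the cytosol and recruits the adaptor ASC and caspase-1, which cleaves pro-interleukin-1β and gasdermin D. IFI204, a mouse relative of human IFI16, is known for activating interferon β through the adaptor STING, and type I and type II interferon raise the expression of most of the family in macrophages.

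The genes lie between chr1:173350879-174031810 (GRCm38, GENCODE M21), a stretch of 681 kb, with 7 of the 10 on the minus strand and 3 on the plus strand. Aim2 (chr1:173350879-173466040, plus strand) is at the proximal end of the stretch and Ifi205 (chr1:174011998-174031810, minus strand) at the distal end. The gene model of Mndal (chr1:173849126-173942491, minus strand) spans all of Ifi211 (chr1:173896345-173913046) and overlaps Ifi203 (chr1:173920407-173942672), both on the same strand.

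RefSeq promoters, which run from 250 bases before a gene's start to 50 bases after it, were available for 9 of the 10 members. Ifi204 had none and was not searched. They were searched on both strands for TTTC, any 2 bases, then TTTC (GAAA, any 2 bases, then GAAA when read from the other strand), the core of the element bound by interferon-activated factors. It was present in 7 of the 9 members (77.8%), in 11 of 25 interferon genes (44%) and in 3.99% of all 27025 genes with a promoter. Its first base lay within the 100 bases before the start in 6 of the 9 members, in 6 of 25 interferon genes (24%) and in 1.24% of all genes. The windows around the match are shown because the family shares more than the searched letters. Capitals mark the match, each line runs 5′ to 3′ on the strand of the gene, and the build is GRCm38.p6.
Ifi213: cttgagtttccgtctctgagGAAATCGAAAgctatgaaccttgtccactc
Ifi208: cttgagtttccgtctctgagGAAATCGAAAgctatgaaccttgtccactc
Ifi203: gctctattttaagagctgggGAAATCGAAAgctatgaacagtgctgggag
Ifi207: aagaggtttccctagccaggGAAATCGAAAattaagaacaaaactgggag
Ifi211: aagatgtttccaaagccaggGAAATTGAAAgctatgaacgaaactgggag
Ifi205: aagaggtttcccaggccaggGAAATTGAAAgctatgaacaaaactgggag

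The windows lie at chr1:173599316-173599365 (Ifi213, minus strand), chr1:173673587-173673636 (Ifi208, plus strand), chr1:173942498-173942547 (Ifi203, minus strand), chr1:173741821-173741870 (Ifi207, minus strand), chr1:173913054-173913103 (Ifi211, minus strand) and chr1:174031860-174031909 (Ifi205, minus strand). None of the 6 overlaps an exon of GENCODE M21. The match began 73 bases before the start in Ifi213, 58 in Ifi208, 35 in Ifi203, 41 in Ifi207, 37 in Ifi211 and 134 in Ifi205. Ifi213 and Ifi208 were identical over the 50 bases although they are read from opposite strands of the chromosome. Mndal had the same 50 bases as Ifi203 at chr1:173880194-173880243 (minus strand), where they fall inside the first exon of its transcript ENSMUST00000188804. Ifi205 and Ifi211 matched at 46 of 50 bases, and Ifi205 and Ifi207 at 44 of 50. The window of Ifi213 and Ifi208 matched those of Ifi205, Ifi207 and Ifi211 at only 25 or 26 of 50 bases.

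The full 10 letters GAAATCGAAA, chosen after the windows had been seen, were present in 5 of the 9 members and in 16 genes of the whole promoter table (0.0592%). Of those 16, 7 are in this cluster, the others there being Ifi206 and Ifi214. With 1 mismatch allowed, 8 of the 9 members held these letters, against 5 of 25 interferon genes (20%) and 434 genes in all (1.61%). The eighth was Ifi209, whose 100 bases before the start (chr1:173630759-173630858, plus strand) are shown with the 10 aligned bases in capitals.
Ifi209: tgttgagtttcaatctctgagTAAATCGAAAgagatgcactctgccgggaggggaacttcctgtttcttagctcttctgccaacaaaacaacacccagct

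Around these bases Ifi209 matched the window of Ifi208 at 35 of 50 positions, with the substitution G1T counted from the 5′ end of GAAATCGAAA (the letter of Ifi208, the position, then the letter of Ifi209). Of the 9 members searched, Aim2 was the one without a match at either stringency. Its promoter in the table surrounds a RefSeq start at position 173420604, which lies 34.8 kb before the start of ENSMUST00000166137, the transcript that carried most of its TPM, so the sequence before that start was not analysed here. The κB-like GGG, any 5 bases, then CC was in 3 of the 9 members and 53.5% of all genes.

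Before the comparison, the libraries were checked against their labels. Erbb4 was between 0.28 and 0.852 TPM in libraries labelled ErbB4myeKO and between 0.372 and 0.716 TPM in those labelled ErbB4FF (exact two-sided permutation p = 0.25, n = 6 litters), and a TPM for a whole transcript does not show the loss of a floxed exon. The Cre of these mice is inserted in the Lyz2 gene. Lyz2 was lower in 5 of 6 libraries labelled ErbB4myeKO, with log2 ratios of -0.81 to -1.20, and higher by 1.43 in litter 6. If the labels of litter 6 were exchanged, its ratios would change sign. Each count of litters with a lower value, whether 6 of 6 or fewer, and each mean ratio therefore rests on those labels. Without litter 6 the smallest exact permutation p would be 0.0625, and the ratios of Ifi208 and Ifi213 without it are given below. All 8 macrophage markers, of which Lyz2 is one, passed 1 TPM. Of the 8, 4 were lower and 4 higher in ErbB4myeKO on average, with a median ratio of -0.05, and their sum was 8417 to 12521 TPM in ErbB4myeKO and 7179 to 15964 in ErbB4FF. Of 12 neutrophil markers 5 passed, with sums of 41.3 to 378 and 42.5 to 188 TPM and Retnlg at 0, and of 10 dendritic cell markers 4 passed, with sums of 580 to 1859 and 760 to 1679 TPM and Siglech and Cd209a at 0. None of the 10 lymphocyte markers passed (sums of at most 2.28 and 2.44 TPM), nor any of 8 erythroid markers, of which 4 were at 0, while 7 of 8 proliferation genes passed with sums of 138 to 250 and 130 to 234 TPM. The depth of a library is not in the table, and between 10214 and 12985 genes were above 0 in ErbB4myeKO and between 10910 and 12830 in ErbB4FF libraries. In each litter the 2 libraries deviated together from the mean of their genotype, with correlations of 0.273 to 0.774, so littermates were treated as pairs.

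Among the 10 members, Ifi205 had the highest and Aim2 the lowest mean level. Summed over the members, the family reached 2995 to 5119 TPM in ErbB4myeKO and 3421 to 6297 TPM in ErbB4FF libraries. Ifi205 alone made up 34.8 to 45.2% of that sum. Its mean over the 12 libraries was 1771 TPM, followed by Ifi211 at 886, Ifi204 at 679 and Ifi209 at 320 TPM, and each of these was above the next in 12 of 12 libraries. Mndal (222 TPM) and Ifi213 (219 TPM) could not be ordered, since Mndal was the higher in 7 of 12 libraries. Ifi207 (125 TPM) was above Ifi203 (98.3 TPM) in 9 of 12 libraries. Ifi208 (59.9 TPM) was above Aim2 (16.6 TPM) in 11 of 12 libraries. Between neighbours in this order, the ranges over the 12 libraries were separate for Ifi204 and Ifi209 and overlapped for the other pairs.

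These levels rest on reads that many members share. Of the 31-base stretches of the principal transcript, 79.2% of Ifi211, 56.5% of Ifi205 and 43.4% of Ifi204 also occur in another member, and so do 36.8 to 43.6% in transcripts of Ifi208 and Mndal and 29.2 and 44.2% in those of Ifi213. The share was 12.1% in Ifi207 and 8.63 to 10.6% in Ifi203. For Ifi209 it was 0.205%, but 48.9% of its stretches occur in some other gene, mostly in Ifi214, which was at most 0.416 TPM. Aim2 shared none with the other 9. The split of reads among the p200 genes is therefore uncertain, whereas that between them and Aim2 is not affected by such sharing. The deposited mean of normalized estimated counts, a geometric mean over the libraries, was 15614 for Ifi205, 866 and 12.6 for the transcripts of Ifi208, and 144 and 59.5 for those of Aim2.

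**Figure D1:**
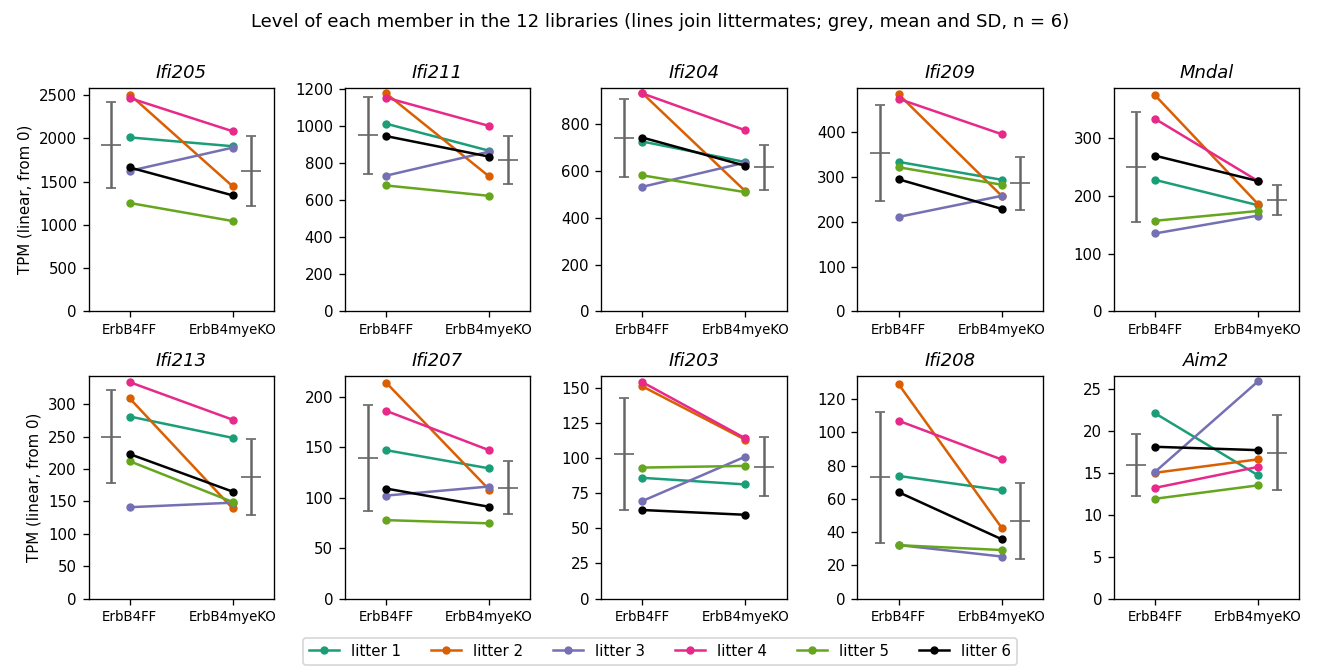
Level of each member in TPM (linear axis from 0) in ErbB4FF and ErbB4myeKO libraries, with a line joining the littermates of each of 6 litters and the mean and SD of each genotype in grey (n = 6). The groups overlap in every panel, the line of litter 2 falls steeply from ErbB4FF to ErbB4myeKO for most p200 genes, and the line of litter 3 runs upward for all but Ifi208.

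The comparison of genotypes asks whether loss of ErbB4 in myeloid cells goes with another level of this family after M1 activation. The mean level was lower in ErbB4myeKO than in littermate ErbB4FF BM-Mɸs for all 9 p200 genes and higher for Aim2, and no member passed the adjusted threshold. The ratios below are log2 of TPM plus 0.5, ErbB4myeKO over ErbB4FF within a litter, which slightly understates the change of a low gene such as Aim2. In limma with litter as a block, over 8780 genes whose mean reached 1 TPM, which included all 10 members, 0 genes had an adjusted p under 0.05 and the smallest adjusted p was 0.603. At an unadjusted p under 0.05, 2 of the 10 members were lower, Ifi208 and Ifi213, beside 4.38% of all genes, and 0 were higher, beside 3.83% (8.21% of all genes in either direction). A mean ratio below 0 was found for 9 of 10 members and 50.2% of all genes, and the median ratio was -0.26 over the members and -0.00 over all genes. In bulk RNA, fewer cells of a type and less RNA per cell cannot be told apart.

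Ifi208 had the mean log2 ratio farthest from 0 among the 10 members. In litters 1 to 6 it was at 65.2, 42.6, 25.3, 83.7, 29.2 and 35.7 TPM in ErbB4myeKO and at 73.8, 129, 32.2, 107, 32.1 and 64 TPM in ErbB4FF libraries. The ErbB4myeKO value was below that of its littermate in 6 of 6 litters, although the groups overlapped because litters 1 and 4 were high and litters 3 and 5 low in both genotypes. The mean ratio was -0.57 ± 0.56 (SD, n = 6 litters), or 32.6% lower, with an exact two-sided permutation p of 0.0312, the smallest that 6 litters allow, and in limma a standard error of 0.19, p = 0.019 and an adjusted p of 0.603. Its main transcript, ENSMUST00000085876, was at 25.3 TPM in both libraries of litter 3 and lower in 5 of 6 litters (exact permutation p = 0.0625, n = 6), so that 6 of 6 rests in litter 3 on ENSMUST00000169857, which has no 31-base stretch of its own. Summed per gene, 1 of the 10 members and 2.31% of all genes were lower in all 6 litters.

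Ifi213, the gene whose promoter window is the same as that of Ifi208, came next. In litters 1 to 6 it was at 248, 139, 148, 276, 149 and 165 TPM in ErbB4myeKO and at 281, 309, 141, 334, 212 and 223 TPM in ErbB4FF libraries. Litter 3 was the exception to a lower ErbB4myeKO value. The mean ratio was -0.41 ± 0.41 (SD, n = 6), or 24.9% lower, with limma p = 0.0221 and adjusted p = 0.603, and the exact permutation p was 0.0625. The transcripts of Ifi208 and Ifi213 share long stretches of sequence with each other, so their values are not independent.

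**Figure D2:**
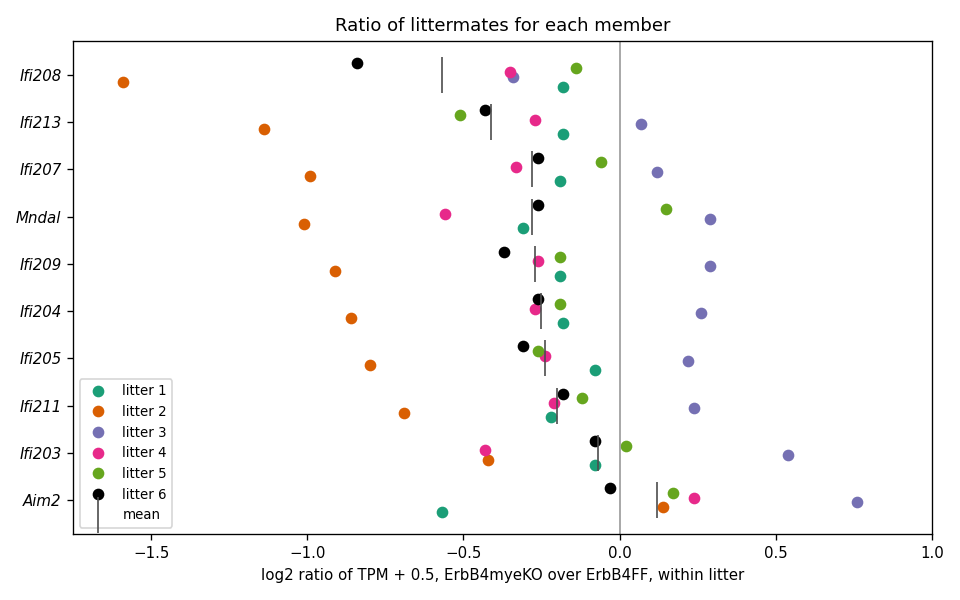
Log2 ratio of TPM + 0.5 in ErbB4myeKO over ErbB4FF (x axis) for each member (y axis), with a point for each of 6 litters, spread vertically for legibility, and a bar for the mean. Litter 2 is the leftmost point of 8 members and litter 3 the rightmost of 9, and all 6 points of Ifi208 lie left of 0.

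The most abundant members, Ifi205, Ifi211 and Ifi204, had log2 ratios closer to 0. Ifi205, whose product is known to control expression of the adaptor ASC, ranged from 1044 to 2083 TPM (median 1670) in ErbB4myeKO and from 1253 to 2508 TPM (median 1838) in ErbB4FF libraries. The ranges overlapped over most of their width. Its mean ratio was -0.24 ± 0.33 (SD, n = 6; limma adjusted p = 0.603), lower in 5 of 6 litters. Ifi211 ranged from 624 to 1002 TPM (median 850) and from 680 to 1178 TPM (median 981), with a ratio of -0.20 ± 0.30. The DNA sensor Ifi204 ranged from 510 to 775 TPM (median 630) and from 533 to 934 TPM (median 735), with a ratio of -0.25 ± 0.36. Both were also lower in 5 of 6 litters, with limma adjusted p of 0.627 for Ifi211 and 0.612 for Ifi204.

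Among the remaining p200 genes, Ifi207 (medians of 109 TPM in ErbB4myeKO and 128 in ErbB4FF) had a mean ratio of -0.28 ± 0.38 and Ifi209 (271 and 328 TPM) one of -0.27 ± 0.39. Each was lower in 5 of 6 litters, with exact permutation p of 0.0938 and 0.156. Mndal, which encodes a nuclear protein related to the human myeloid nuclear differentiation antigen, had medians of 185 and 249 TPM and a ratio of -0.28 ± 0.47, lower in 4 litters. Ifi203 was the p200 gene with the smallest difference, with medians of 97.7 and 89.6 TPM and a ratio of -0.07 ± 0.35, lower in 4 of 6 litters. Its medians and its mean ratio thus differ in direction. Counted over the members, 7 of 10 were lower in at least 5 of 6 litters, beside 14.3% of all genes. Litter 6 was among the lower litters for each of the 7, and all but Ifi208 were lower in exactly 5. If the labels of litter 6 were exchanged, Ifi208 would thus be the only member left in this count. Of the members, 0 had groups that did not overlap, beside 0.0114% of all genes with every ErbB4myeKO value below every ErbB4FF value.

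Aim2 was the member with a mean ratio above 0. In litters 1 to 6 it was at 14.7, 16.6, 25.9, 15.7, 13.5 and 17.7 TPM in ErbB4myeKO and at 22.1, 15.0, 15.1, 13.2, 11.9 and 18.1 TPM in ErbB4FF libraries. The value of 25.9 TPM in litter 3 stood above the other ErbB4myeKO libraries, whose range of 13.5 to 17.7 TPM lay within the 11.9 to 22.1 TPM of the ErbB4FF libraries. The mean ratio was 0.12 ± 0.43 (SD, n = 6), higher in 4 of 6 litters, with exact permutation p = 0.562 and limma adjusted p = 0.824. Without litter 3 the ratio was -0.01.

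The ratios of the p200 genes ranked the litters in much the same way. They were negative in litters 1, 2, 4, 5 and 6 and positive in litter 3 for 6 of the 10 members, a pattern found in 3.35% of all genes. This pattern also rests on the labels of litter 6. Litter 2 had the lowest ratio for 8 members, beside 18.6% of all genes, and litter 3 the highest for 9, beside 22.1%. The median ratio over the members was -0.18, -0.88, 0.25, -0.27, -0.13 and -0.26 in litters 1 to 6, while that over all genes was between -0.02 and 0.02. In litters 2 and 3 the median log2 ratio was -0.06 and -0.35 over the 8 macrophage markers (-0.22 and -0.76 for their sum) and -0.03 and 0.03 over the 4 dendritic cell markers tested (-0.60 and -0.39 for the sum of all 10). It was 0.01 and -0.95 over the 5 neutrophil markers tested, which were at 1.02 in litter 6, and 0.25 and -0.17 over the 7 proliferation genes tested. The dendritic cell median was 0.47 and 0.50 in litters 4 and 6. In litter 2, Lyz2 was 4395 of the macrophage sum of 10618 TPM in ErbB4myeKO and 7823 of 12382 in ErbB4FF. The negative ratio of that sum rests on Lyz2, which carries the Cre. At an unadjusted p under 0.05, 1 macrophage marker was lower, beside 4.38% of all genes. Higher at that level were 1 neutrophil, 1 dendritic cell and 1 proliferation marker, beside 3.83%. The part of these markers in the member values was not tested. The size of the difference and the number of members lower at an unadjusted p under 0.05 depended on which litters were included. Without litter 2 the members lower at that level were still Ifi208 (-0.37) and Ifi213 (-0.27), beside 2.46% of all genes, and the median ratio was -0.14. Without litter 3 there were 8, all p200 genes but Ifi203, beside 5.18% of 8850 genes, and the median ratio was -0.36. Without litter 6, where Lyz2 was opposite to the other litters, Ifi213 (-0.41) was lower at that level, beside 3.17% of all genes, and Ifi208 (-0.52) was just outside it. Without litter 5 Ifi208 (-0.66) was the member lower at that level, beside 5.56% of all genes, and Ifi213 was at -0.39.

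Across the 12 libraries, levels on the log2 scale went together among the 9 p200 genes, with Pearson's r of 0.44 to 0.96 (median 0.81) over 36 pairs. Ifi204 with Ifi211, and Ifi205 with Ifi207, had the highest r of 0.96, and Ifi203 with Ifi211 the lowest. Aim2 had r of -0.30 to 0.22 with the same 9. For the 6 ratios within litters, r was 0.46 to 0.99 (median 0.90) among the p200 genes and -0.05 to 0.46 (median 0.35) between them and Aim2. The points share litters, libraries and, for the p200 genes, reads, so these are descriptions. Between litters the mean level of a member varied with an SD of 0.22 to 0.70 on the log2 scale, most for Ifi208, and litter 4 was the highest litter for each of the 9 p200 genes while litter 3 was for Aim2. This spread exceeded the mean difference between genotypes for 8 of the 10 members, the exceptions being Ifi204 and Ifi213.

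**Figure D3:**
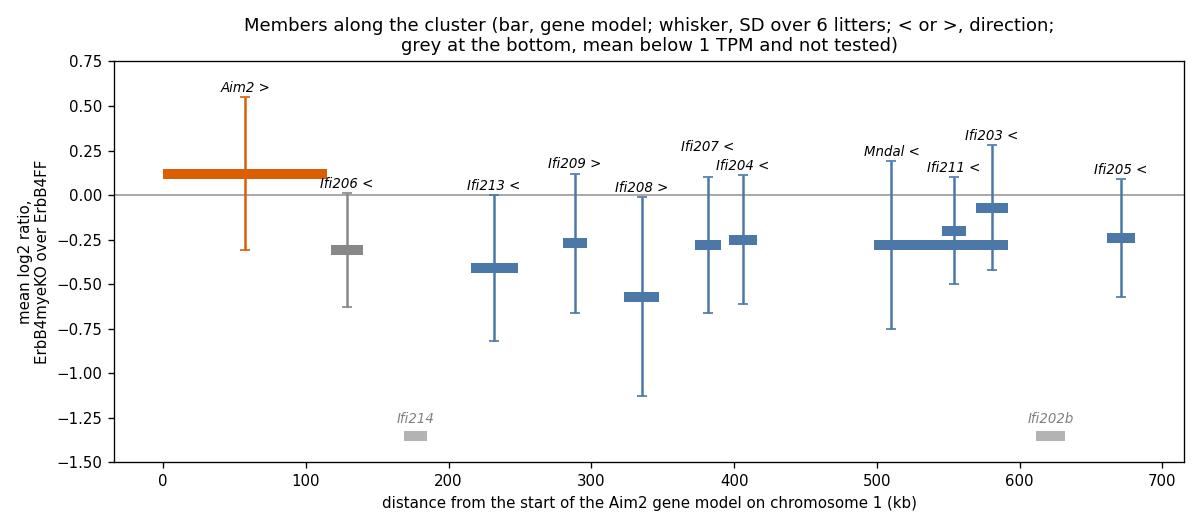
Mean log2 ratio of ErbB4myeKO over ErbB4FF (y axis, whiskers SD over 6 litters) at the place of each gene model along the cluster (x axis, kb from the start of Aim2), with Aim2 in orange, the other members in blue, and Ifi206 in grey as a gene of the cluster that is not a member. The p200 genes lie between -0.57 and -0.07 along the whole stretch, and Aim2 at the left end lies at 0.12.

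Of the members, 5 have 2 principal transcripts, and for Ifi203, Mndal and Aim2 the division between them set libraries apart. Ifi203 was assigned to ENSMUST00000123708 at 58.2 TPM in the ErbB4FF and 68.3 TPM in the ErbB4myeKO library of litter 5, and at no more than 0.0247 TPM in the other 10 libraries. In litter 5 this transcript held 62.5% and 72.4% of the gene, and ENSMUST00000081216 held the rest. Neither transcript of Ifi203 has a 31-base stretch of its own in the annotation. Mndal ENSMUST00000111210 likewise held 69.4% and 62.2% of its gene in litter 5, against 0.00587 to 35.3% in the other libraries. The models of both transcripts begin with a short exon, of 38 bases in Ifi203 and 37 in Mndal, whose lower coordinate on chromosome 1 is the same, 173942455.

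Mndal ENSMUST00000111210 was lower in ErbB4myeKO in 6 of 6 litters, at 42.8, 36.7, 0.00972, 39.7, 108 and 72.9 TPM in litters 1 to 6 against 69.2, 108, 22.4, 99.2, 109 and 95.3 TPM in ErbB4FF. Its mean log2 ratio of -1.57 ± 2.0 (SD, n = 6; exact permutation p = 0.0312; limma adjusted p = 0.685) rested largely on litter 3, where the ErbB4myeKO value was near 0 and the ratio was -5.49. All its 31-base stretches also occur in other transcripts of the gene, so its share cannot be read from stretches of its own. The other Mndal transcript, ENSMUST00000188804, had a ratio of -0.09 ± 0.52. For Aim2, ENSMUST00000147604 held 5.74 and 6.34% of the gene in litter 5 and 6.31% in the ErbB4myeKO library of litter 2, and between 27.5 and 43.7% in the other 9. Litter 5 stood apart beyond this family, with 5 transcripts of the whole table, that of Ifi203 included, at least 20-fold higher and 26 at least 20-fold lower in both of its libraries than in all other 10, compared with 0 to 2 in each other litter, and the part of this in the member values was not tested.

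Over the 15 member transcripts, 13 were lower on average, and 2 had an unadjusted limma p under 0.05, beside 3.6% of 10085 transcripts that were lower at that level. These were Ifi208 ENSMUST00000085876 (-0.50 ± 0.55) and Ifi213 ENSMUST00000180215 (-0.44 ± 0.44), each with a limma adjusted p of 0.685. With the highest transcript alone standing for each gene, Mndal was at -0.09 instead of -0.28, and Ifi203 at -0.15 instead of -0.07.

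**Figure D4:**
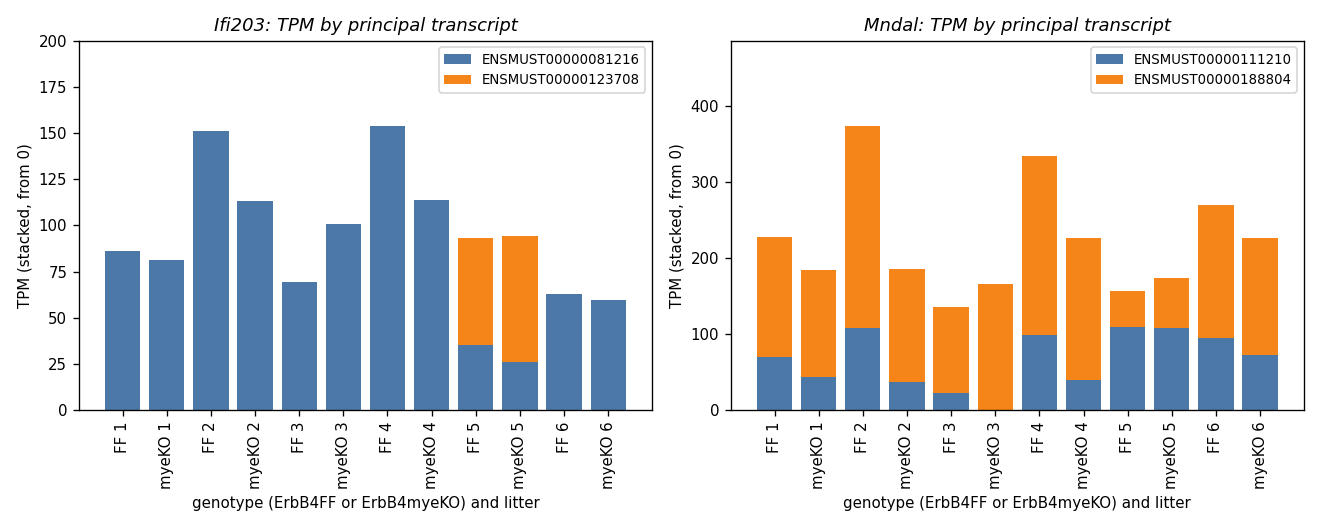
TPM of Ifi203 (left) and Mndal (right) in each library, stacked by principal transcript on a linear axis from 0, with ErbB4FF (FF) and ErbB4myeKO (myeKO) of litters 1 to 6 side by side. ENSMUST00000123708 is visible in litter 5 alone, and ENSMUST00000111210 takes over 60% of Mndal in both litter 5 libraries and is absent to the eye from ErbB4myeKO of litter 3.

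The partners of AIM2 in the inflammasome named here had unadjusted limma p above 0.05. Their mean ratios were smaller than the SD between litters, which is not the error of the mean. Pycard, which encodes ASC, was at 13.6 ± 6.89 TPM in ErbB4myeKO and 17.9 ± 8.81 TPM in ErbB4FF (SD, n = 6), with a mean log2 ratio of -0.38 ± 0.45. The ratio was -0.20 ± 0.37 for the protease Casp1 and -0.30 ± 0.39 for the pore protein Gsdmd. The unadjusted limma p was 0.0506 for Pycard, 0.175 for Casp1 and 0.0656 for Gsdmd, with adjusted p of at least 0.603. The 2 cytokines that caspase-1 matures differed in direction, with Il1b at 0.25 ± 0.75 and Il18 at -0.28 ± 0.47. Of 14 genes tested in the list for the AIM2 inflammasome and pyroptosis, 9 had a mean ratio below 0, beside 50.2% of all genes, with a median of -0.14. At an unadjusted p under 0.05, 1 was lower, beside 4.38% of all genes, and 0 were higher, and over the alternatives 0 to 2 were lower (0.399 to 5.56% of all genes). The gene was Mefv (-0.15 ± 0.13, lower in 6 of 6 litters, exact permutation p = 0.0312), which encodes the pyrin inflammasome sensor.

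In the list for cytosolic DNA sensing, the route from IFI204 to interferon, 11 of 13 genes tested had a ratio below 0, beside 50.2% of all genes, with a median of -0.19. The DNA sensor Cgas was at -0.14 ± 0.20, Tmem173, which encodes STING, at -0.26 ± 0.48, the kinase Tbk1 at -0.08 ± 0.08 and the transcription factor Irf3 at -0.20 ± 0.37. Ifnb1, the interferon at the end of this route, was at 6.05 TPM in ErbB4myeKO and 6.00 TPM in ErbB4FF on average, with a ratio of 0.50 ± 1.25. The genes of this list lower at an unadjusted p under 0.05 were Samhd1, which removes the triphosphate from deoxynucleotides (-0.31 ± 0.27, lower in 6 of 6 litters, exact permutation p = 0.0312), and Irf7 (-0.36 ± 0.43, lower in 5 of 6, exact permutation p = 0.0938), and 0 were higher, which is 2 of 13 beside 4.38% of all genes. Over the alternatives 0 (without the litter block, 0.399% of all genes) to 4 (without litter 5, 5.56%) genes of this list were lower, with 1 without litter 6 (3.17%).

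The list for interferon signalling held receptors, their kinases, transcription factors and target genes. Of 29 tested, 21 had a ratio below 0 and 8 above, with a median of -0.18, and at an unadjusted p under 0.05, 7 were lower and 1 was higher, beside 4.38% and 3.83% of all genes. These counts depended on the fit, as did those over all genes. Without the litter block 0 were lower (0.399% of all genes), without the trend 2 (3.47%), without litter 2 also 2 (2.46%) and with the Y-linked covariate 3 (4.08%). Without litter 4 there were 3 (2.56%), without litter 6 also 3 (3.17%) and without litter 5 there were 9 (5.56%). The 7 were Ifngr2, a chain of the IFNγ receptor (-0.20 ± 0.10), Stat2 (-0.19 ± 0.19) and Irf7 of the interferon pathway, and the target genes Isg15 (-0.30 ± 0.34), Oas1a (-0.26 ± 0.24), Rsad2 (-0.47 ± 0.57) and Cxcl10 (-0.18 ± 0.12). Ifngr2 and Cxcl10 were lower in 6 of 6 litters. Tyk2, a kinase of the type I receptor, was the gene that was higher (1.03 ± 1.14), but it was listed at 0 in 1 library of each genotype, and no gene of the list was higher with a pseudocount of 0.1, with the Y-linked covariate, without the litter block or without litter 1 or 6. Among the interferon regulatory factor genes named here, Irf9 was at 0.10 ± 1.89, with 1 library of each genotype listed at 0. Irf1 was at -0.05 ± 0.13, Irf3 at -0.20 ± 0.37 and Irf7 at -0.36 ± 0.43. No gene of these lists had an adjusted p under 0.05 in limma, and the adjusted p was 0.603 for each of those named with an unadjusted p under 0.05.

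**Figure D5:**
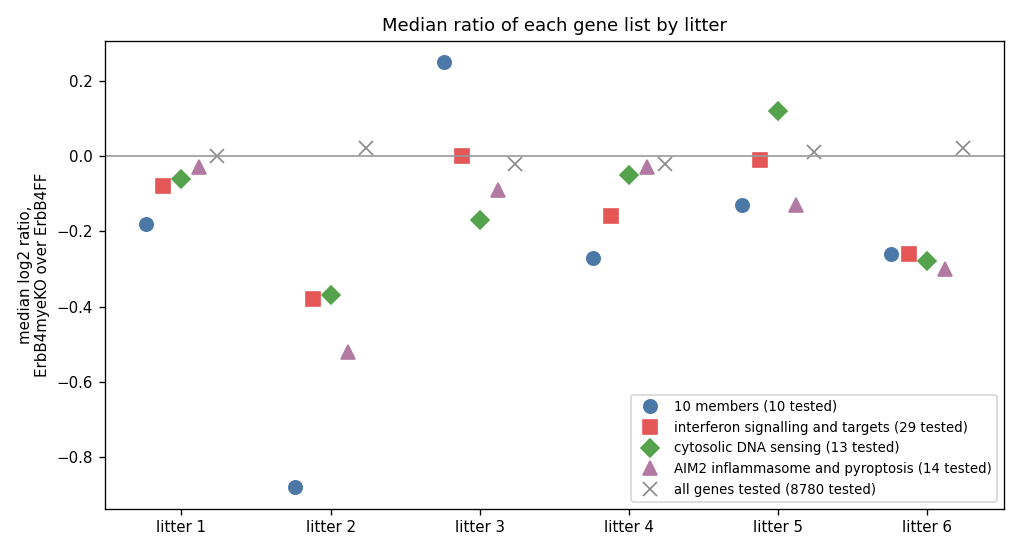
Median log2 ratio of ErbB4myeKO over ErbB4FF (y axis) in each litter (x axis) for the 10 members, 3 gene lists and all 8780 genes tested, with points offset sideways for legibility. The members lie at -0.88 in litter 2 and 0.25 in litter 3, while the interferon list lies at -0.38 and -0.00 in the same litters.

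By litter, the median ratio of the interferon list was -0.08, -0.38, -0.00, -0.16, -0.01 and -0.26 in litters 1 to 6. Litter 2 was the lowest litter for this list, for the inflammasome list (-0.52) and for the DNA sensing list (-0.37). In litter 3 the medians of the 3 lists were between -0.17 and -0.00. Part of the interferon list nevertheless shared the pattern of the p200 genes. Of its 29 genes, 7 were negative in litters 1, 2, 4, 5 and 6 and positive in litter 3, beside 3.35% of all genes. Litter 2 had the lowest ratio for 14 of the 29 and litter 3 the highest for 12, beside 18.6% and 22.1% of all genes. The pattern was found in 2 of 14 inflammasome and 1 of 13 DNA sensing genes. The difference between the lists and the members was not tested.

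Other genes of chromosome 1 near the cluster were mixed. Of 21 listed, 17 were in the table and 9 passed the filter, of which 6 had a ratio below 0, beside 50.2% of all genes, with a median of -0.24. Ifi206, a p200 gene of the cluster outside the members, was at 145, 126, 77.6, 175, 106 and 114 TPM in ErbB4myeKO and at 162, 237, 80.7, 229, 110 and 141 TPM in ErbB4FF libraries of litters 1 to 6. It was the lower of the pair in all 6 litters, with a ratio of -0.31 ± 0.32 (SD, n = 6; exact permutation p = 0.0312; limma p = 0.0301, adjusted p = 0.603). Transcripts of Ifi208 and Ifi213 share 31-base stretches with Ifi206, so its values are not independent of theirs, and its promoter window differs from that of Ifi208 at 1 of 50 bases. Fcgr4, an Fc receptor gene, was also lower in 6 of 6 litters (-0.44 ± 0.45, exact permutation p = 0.0312). Ifi206 and Fcgr4 were the genes of this list with an unadjusted p under 0.05, 2 of 9 beside 4.38% of all genes. The count was 1 without litter 6 (3.17% of all genes), 0 without litter 4 (2.56%) and 3 without litter 3 (5.18%). Over all genes, 2.31% were lower in 6 of 6 litters. The Fc receptor genes Fcgr2b (-0.37 ± 0.83) and Fcgr3 (-0.24 ± 0.62) and Slamf9 (-0.42 ± 0.70) varied more between litters than they differed between genotypes. Slamf7, Slamf8, Dusp23 and Igsf8 were between -0.06 and 0.09.

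The 5 genes outside the members whose levels over the 12 libraries were most like theirs, by mean Pearson's r with the 10 members among 5765 genes of at least 5 TPM, were Serinc3, Taok3, Prkx, Jak1 and Igtp. Their mean r with the 9 p200 genes was 0.83 to 0.85, and their r with Aim2 was between -0.12 and 0.05. Their mean ratios are given as a description, since genes chosen for levels like those of the members must share much of their pattern. The ratio was -0.23 for Taok3, -0.23 for Igtp, -0.21 for Prkx, -0.17 for Serinc3 and -0.11 for Jak1. In litter 3 it was -0.05 for Taok3, 0.32 for Igtp, 0.27 for Prkx, 0.22 for Serinc3 and 0.31 for Jak1.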

How the data were processed

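RNA was sequenced as single-end 75 bp reads from stranded mRNA libraries of 12 cultures, 6 labelled ErbB4myeKO and 6 labelled ErbB4FF. The authors pseudoaligned the reads with kallisto (mm10 per the labels) and deposited TPM for principal transcripts, which made up 59.0 to 74.7% of a library. Versions are not given in the sources used here. A further column the authors deposited, sleuth's average natural log of each transcript's normalized count, served here only for depth, and sleuth's p-values, q-values and ratios by genotype, which were not used. Of 29213 lines, 405 that repeat a transcript were dropped.

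Gene sums of TPM were logged as log2(TPM + 0.5), and genes whose mean reached 1 TPM entered a limma fit (version 3.58.1, R 4.3.3) using eBayes with trend and litter as a block, with Benjamini-Hochberg adjustment over all genes tested. The study's methods adjust for litter and sex, and sex is not on the labels. The pairing of littermates comes from the number in the sample titles, and every ErbB4myeKO library (6 of 6) was most like its own littermate. An exact two-sided permutation test over 64 swaps within litters was used for single values, with 0.0312 as its smallest p. The fit was tested on simulated data with planted changes larger than the mean ratio of any member. Its power for differences of the members' size was not tested. Python 3.11.15, pandas 2.3.3, numpy 2.4.6, scipy 1.17.1 and matplotlib 3.10.9 were used.

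The members and lists were chosen with earlier results of these data known. Named were all members, core genes of the lists (1 gene and 1 motif are not reported here), list genes with an unadjusted p under 0.05, locus genes of at least 1 TPM and the 5 genes most like the members. Precision rests on the spread between litters, since depth per library was not analysed. Alternatives were no litter block, a covariate from 4 Y-linked genes, pseudocounts of 0.1 and 1, no filter or 5 TPM, median-ratio rescaling, no trend, the highest transcript alone and each litter left out. Gene models came from GENCODE M21 (GRCm38) and promoters from RefSeq (GRCm38.p6).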

Additional observations from a re-analysis of the deposited data

Results flagged for a closer look

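In 50 groups of 6 libraries (the members and their transcripts in each genotype), 3 held a value whose gap to the nearest other was above Dixon's critical value, and chance gives about 1 in 20. Members with a single principal transcript entered as gene and as transcript with the same values, so the 50 groups are not all distinct. Aim2 was at 25.9 TPM in the ErbB4myeKO library of litter 3, where the other 5 were between 13.5 and 17.7 TPM. Ifi203 ENSMUST00000123708 was at 68.3 TPM in ErbB4myeKO and 58.2 TPM in ErbB4FF of litter 5 and near 0 in the other libraries of both genotypes. Both genotypes of litter 5 were thus high.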

How the results depend on the processing

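The 9 p200 genes kept a ratio at or below 0 in all 15 alternatives, and Aim2 turned from 0.12 to -0.01 without litter 3 (up to 0.26 with another litter left out). With the median-ratio rescaling, no member moved by more than 0.01. Adjusted p over the members was between 0.499 and 1 in all alternatives.

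Without the litter block, 0 members were lower at an unadjusted p under 0.05 instead of 2 (smallest p 0.109), and over all genes 35 were lower and 40 higher instead of 385 and 336. With litters left out in turn, the members lower at that level numbered 1 to 8, all genes lower 217 to 484 and higher 196 to 399, and 0 to 1 genes had an adjusted p under 0.05. The lowest counts over all genes came without litter 2, and the single adjusted call without litter 3 (8 members lower). Without the filter on low values 533 of 15865 genes tested were higher, beside 336 of 8780 in the main fit. The cause of the changes with litters left out was not tested.

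Reads shared among p200 genes, litters in which the genotypes differed in opposite directions, and 12 libraries limit these comparisons.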

Other observations

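Of the p200 genes of the cluster outside the members, Ifi202b was listed at 0 in 11 libraries and at 0.148 TPM in the ErbB4myeKO library of litter 6, and Ifi214 was at most 0.416 TPM. In Ifi208, the shorter transcript ENSMUST00000169857 was at 0 TPM in both libraries of litter 5 and in the ErbB4myeKO library of litter 3, and reached 21.5% of the gene in the ErbB4FF library of litter 3. In Ifi213, the transcript ENSMUST00000180215 held 73.3 to 82.3% of the gene in all 12 libraries.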
